A study of Mus musculus with 6 samples.

Results

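Chemokines are small secreted proteins that direct the migration of cells, and 10 of their genes were examined here in C2C12 cells after CD36 knockdown: Ccl2, Ccl7, Ccl9, Cxcl1, Cxcl5, Cxcl10, Cxcl12, Cxcl13, Cxcl14 and Cx3cl1. They were found by gene symbol among the 55450 genes of the deposited table, where 38 chemokine ligand genes of the mouse were looked up in all. These 10 had been picked with expression values of the same 6 samples in view, so their differences between the groups are given as a description and support nothing beyond it. RNA-seq was performed on C2C12 cells, a mouse skeletal muscle line that fuses into myotubes, in 3 samples that received small interfering RNA (siRNA) directed at Cd36, called siCD36, and in 3 that received negative control siRNA, called siCont, each at 20 nM and 72 h after transfection. The study describes the cells as myotubes, while the labels call them myoblasts of strain C57BL/6, and the study's methods give 2 siCD36 duplexes without saying which of them each sample received. Nothing in the labels says whether the samples were separate cultures, so every p-value rests on a spread among these 6 samples that could be technical. Because RNA was taken from whole cultures, a lower share of cells that make a transcript and less of it per cell cannot be told apart.

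Chemokines are named by the spacing of the first cysteines of the protein. In CC chemokines these lie side by side, in CXC chemokines they are separated by a single residue, and in the CX3C chemokine by several. Each acts through G protein-coupled receptors on the responding cell, while atypical receptors bind chemokines and remove them without G protein signaling. Cultured muscle cells are known to secrete chemokines, which in injured muscle draw monocytes and neutrophils to the fibers, and Cxcl12 is known to guide the migration of muscle precursor cells themselves. Many inflammatory chemokine genes are induced through NF-kB, and a few, such as Cxcl10, through interferon.

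Totals were 67048354 to 71878709 counts with siCD36 and 56907806 to 60566530 with siCont. Levels of each gene are given as CPM, which are counts scaled to the size of each library, or as FPKM, which also corrects for transcript length and is the scale on which different genes are compared. Cd36, the target of the siRNA, had 0.578, 0.460 and 0.412 CPM with siCD36 and 17.7, 18.8 and 19.2 CPM with siCont, so that the labels were borne out. Muscle genes were abundant: Myog, which encodes myogenin, averaged 404 FPKM across all libraries and Myh3, the embryonic myosin heavy chain, 397 FPKM. Some low values were favored in the deposited counts. Of all entries from 1 to 8, 29.3% were 4 and 15.7% were 8, beside 15.1% at 1, 12.5% at 2 and 9.33% at 3. A count may therefore not be a single read pair. Differences were tested with edgeR's quasi-likelihood test in the 11796 genes whose mean reached 1 FPKM, and a gene is said to have passed, risen or fallen where its adjusted p was under 0.05.

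To show the DNA in front of the genes that differed most, the upstream sequence was taken from the RefSeq promoter table of GRCm38, which held 7 of the 10 genes (not Ccl2, Ccl7 and Cxcl5). The 250 bases before the annotated start of Cxcl13 (GRCm38 chr5:95956689-95956938, plus strand) and of Ccl9 (chr11:83578637-83578886, minus strand) are given 5′ to 3′ along the gene. Capitals mark matches on either strand to the motifs that were searched.
Cxcl13: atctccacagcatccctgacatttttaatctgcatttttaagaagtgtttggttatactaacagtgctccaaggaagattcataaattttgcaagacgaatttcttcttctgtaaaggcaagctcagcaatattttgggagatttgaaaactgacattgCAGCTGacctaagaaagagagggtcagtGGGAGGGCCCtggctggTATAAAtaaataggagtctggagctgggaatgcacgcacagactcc
Ccl9: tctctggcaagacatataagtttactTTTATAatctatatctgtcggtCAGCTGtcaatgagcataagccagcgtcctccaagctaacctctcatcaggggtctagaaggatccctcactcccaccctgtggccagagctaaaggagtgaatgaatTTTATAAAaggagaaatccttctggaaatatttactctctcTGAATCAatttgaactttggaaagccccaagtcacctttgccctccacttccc
Both windows held the letters of a TATA box (TATAAA) and an E-box (CAGCTG), the kind of site that MyoD and related factors recognise. Along the gene, TATAAA lay at -46 to -41 from the annotated start in Cxcl13 and at -92 to -87 in Ccl9. In the full 300 bases of the table's windows (250 before and 50 after the start), TATAAA was found at any place in 3 of the 7 genes (Cxcl13, Ccl9 and Cx3cl1) and in 13.6% of all 32851 promoters. In Cx3cl1 it lay at -6 to -1. The E-box was found in 2 of the 7 genes (Cxcl13 and Ccl9) and in 16.3% of all promoters. An AP-1-like motif (TGANTCA) was found in Ccl9 and Cxcl10, and in 7.81% of all promoters. Such matches describe letters and do not show that a factor was bound.

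Short windows of Cxcl1 and Cxcl10, textbook targets of NF-kB, are printed to show their motifs. Whether NF-kB acted on any of the genes was not tested. Capitals mark a single match in each line, with 10 bases on each side, and coordinates are those of GRCm38 (Cxcl1 on the plus strand, Cxcl10 on the minus strand).
Cxcl1, NF-kB-like, distal (chr5:90891145-90891174): tccggttgcaGGGAAACACCctgtactccg
Cxcl1, NF-kB-like, proximal (chr5:90891164-90891193): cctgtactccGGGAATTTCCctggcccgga
Cxcl10, NF-kB-like, distal (chr5:92349029-92349058): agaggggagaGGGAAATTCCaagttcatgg
Cxcl10, NF-kB-like, proximal (chr5:92348973-92349002): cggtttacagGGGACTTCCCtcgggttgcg
Cxcl10, interferon response element-like (chr5:92349083-92349112): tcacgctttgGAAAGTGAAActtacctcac
The NF-kB-like motif (GGGA, any 4 bases, CC, on either strand) was found in Cxcl1, Cxcl10 and Cxcl13, which is 3 of the 7 genes, and in 20.7% of all promoters. The motif of the interferon response element (GAAA, any 2 bases, GAAA) was found in Cxcl10 and Cxcl14, and in 3.44% of all promoters.

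Cxcl13 had the largest fold change of the 8 genes in the fit. It encodes the chemokine that draws B cells into lymphoid follicles through the receptor CXCR5, and it lies on the plus strand of chromosome 5 from 95956951 to 95961068 (GRCm38, ENSMUSG00000023078). Its level was 10.7, 12.6 and 14.0 CPM with siCD36 and 2.28, 3.18 and 1.83 CPM with siCont. Each siCD36 sample lay far above each siCont sample. The fitted fold was 5.11 (log2 fold change 2.35, standard error 0.236, 95% interval 1.79 to 2.92), and the raw counts behind it were 704, 874 and 1018 with siCD36 and 130, 191 and 105 with siCont. The adjusted p of Cxcl13 was under 0.05 in edgeR, and it was 0.05 or more without siCD36 replicate 2 (log2 fold change 2.34) and without siCont replicate 1 (2.31).

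**Figure D1:**
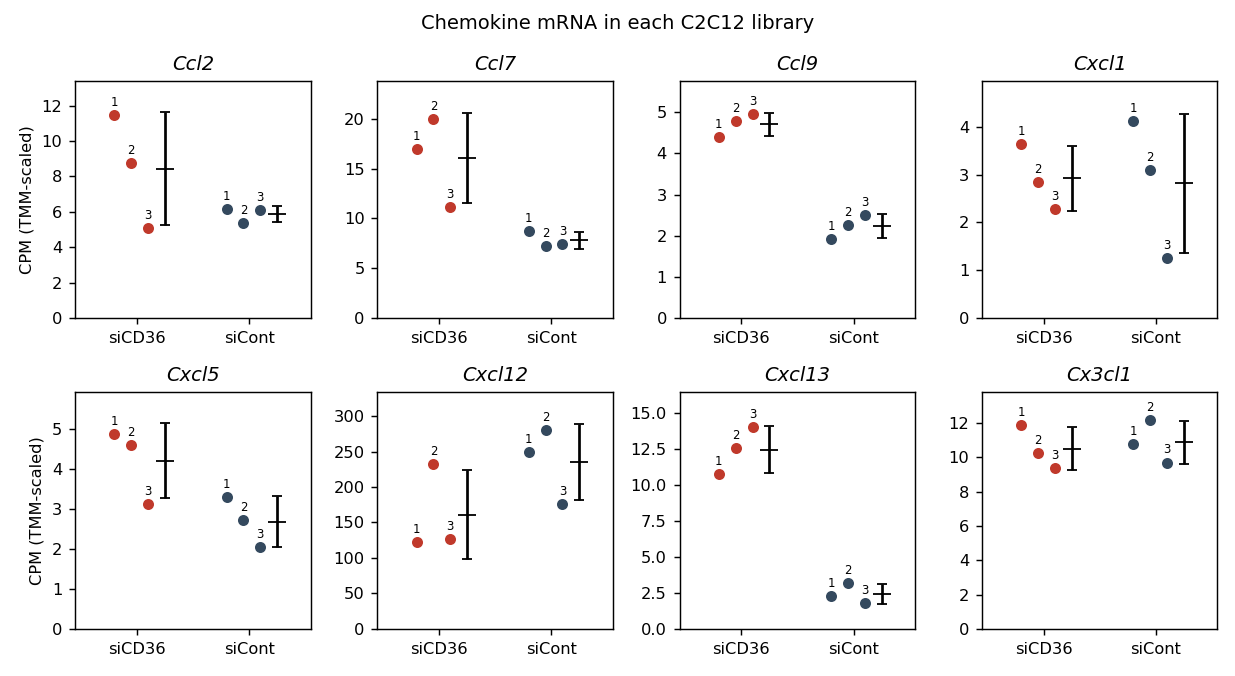
CPM (vertical axis, from 0, counts scaled by TMM) of the 8 chemokines that reached a mean of 1 FPKM, in the siCD36 (red, left) and siCont (dark, right) samples of each panel. Numbers mark the replicate, and the bar beside each group is the mean ± SD (n = 3). The groups stood apart for Cxcl13, Ccl7 and Ccl9 and overlapped for the other 5 genes.

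The CC chemokines Ccl2, Ccl7 and Ccl9 attract monocytes and other leukocytes, Ccl2 and Ccl7 mainly through CCR2 and Ccl9 through CCR1. Ccl2 (chromosome 11, 82035571 to 82037453) and Ccl7 (82045712 to 82047525) are neighbors on the plus strand, and Ccl9 (83572919 to 83578636, minus strand) lies in another cluster of CC genes on the same chromosome. Ccl9 was at 4.40, 4.77 and 4.95 CPM with siCD36 and 1.93, 2.25 and 2.51 CPM with siCont. Its groups were tight and did not overlap, at a fold of 2.11 (log2 fold change 1.08, standard error 0.164, 95% interval 0.68 to 1.47). The adjusted p of Ccl9 was under 0.05 in edgeR. Its mean of 1.01 FPKM was just inside the filter, at 0.638 ± 0.104 FPKM (SD, n = 3) with siCont alone, so Ccl9 was tested only because it was higher with siCD36; Ccl25, at a mean of 0.800 FPKM, was the nearest chemokine outside it. With every gene that had a read in the fit, the adjusted p of Ccl9 was just under 0.05 (log2 fold change 1.07). That fit used the same values on which the gene was picked, so it adds no support. Of the 6 fits that left out a library, Ccl9 kept its call only without siCD36 replicate 1 (log2 fold change 1.13), and it lost the call without siCD36 replicate 2 (1.07) or 3 (1.04) and without siCont replicate 1 (0.98), 2 (1.09) or 3 (1.17).

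Ccl7 was the most abundant of the 10 genes on the FPKM scale in siCD36 samples, together with Cxcl12. It was at 17.0, 20.0 and 11.1 CPM with siCD36 and 8.75, 7.20 and 7.48 CPM with siCont. The groups did not overlap, although siCD36 replicate 3 lay closer to the siCont samples than to siCD36 replicate 2. The fold was 2.05 (log2 fold change 1.04, standard error 0.225, 95% interval 0.50 to 1.58), and Ccl7 did not pass the adjusted threshold. Without siCD36 replicate 3 it did (log2 fold change 1.24).

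Ccl2, the monocyte chemoattractant MCP-1, was at 11.5, 8.76 and 5.11 CPM with siCD36 and 6.18, 5.35 and 6.09 CPM with siCont. The siCD36 samples were widely spread, with replicate 3 below all siCont samples, and the log2 fold change of Ccl2 was 0.52 (standard error 0.287, 95% interval -0.17 to 1.21). Without siCD36 replicate 1 it was 0.24. Ccl2 did not pass the threshold. The ratio of Ccl7 to Ccl2 in FPKM, taken within each library, was 2.11, 3.25 and 3.11 with siCD36 and 2.01, 1.91 and 1.75 with siCont. Of this pair Ccl7 had both the higher level and the larger difference. Ccl8, of the same cluster, had a still higher mean of 26.4 FPKM and a log2 fold change of 0.49. The gene Gm17268, on the opposite strand over Ccl2, had no counts in any library.

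Cxcl1 and Cxcl5 attract neutrophils through CXCR2 and lie in the CXC cluster of chromosome 5 (90891241 to 90893115 and 90759360 to 90761624). Cxcl5 was at 4.87, 4.60 and 3.13 CPM with siCD36 and 3.29, 2.72 and 2.04 CPM with siCont. The lowest siCD36 sample of Cxcl5 lay below the highest siCont sample, and the log2 fold change was 0.65 (standard error 0.257, 95% interval 0.03 to 1.26), which did not pass the adjusted threshold. Cxcl1 was at 3.64, 2.85 and 2.28 CPM with siCD36 and 4.11, 3.10 and 1.25 CPM with siCont. The groups of Cxcl1 overlapped throughout, and its log2 fold change was 0.05 (standard error 0.432), with a 95% interval from -0.99 to 1.09 that is the widest among the 8 genes in the fit. The sign of Cxcl1 turned without siCD36 replicate 1 (-0.14) and without siCont replicate 3 (-0.30). In both genes replicate 3 was the lowest sample of each group.

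Cxcl12 had the lowest fold change of the 8 genes in the fit. It encodes SDF-1, the ligand of CXCR4, and lies on chromosome 6 from 117168535 to 117181367. Its level was 123, 233 and 127 CPM with siCD36 and 249, 281 and 176 CPM with siCont. Of the siCD36 samples, replicates 1 and 3 lay below all siCont samples, while replicate 2 lay among them. The log2 fold change of Cxcl12 was -0.55 (standard error 0.293, 95% interval -1.25 to 0.15), it did not pass the threshold, and it was -0.92 without siCD36 replicate 2.

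Cx3cl1, which encodes fractalkine, a chemokine made as a membrane protein and shed by proteases, is on chromosome 8 from 94772009 to 94782427. It was at 11.9, 10.3 and 9.38 CPM with siCD36 and 10.8, 12.2 and 9.69 CPM with siCont. These ranges nearly coincide, and the log2 fold change of -0.05 (standard error 0.140) had the narrowest 95% interval of the 8 genes in the fit, -0.39 to 0.29. Its sign turned without siCD36 replicate 3 (0.025) and without siCont replicate 2 (0.039).

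Cxcl10 and Cxcl14 were close to the limit of detection and were below the filter, so neither was tested. Cxcl10, the interferon-induced ligand of CXCR3 (chromosome 5, 92346638 to 92348882), had 5, 14 and 0 counts with siCD36 and 0, 0 and 4 counts with siCont. It lies within Art3, a gene of the other strand that had 66, 59 and 56 counts with siCD36 and 125, 139 and 87 with siCont, and the strand setting of the counting is not given in the sources used here. Cxcl14 (chromosome 13, 56288643 to 56296551), a chemokine of epithelia, had 15, 10 and 17 counts with siCD36 and 4, 0 and 8 counts with siCont. Since the value 4 was common among low counts, these counts may stand for even fewer reads, and no fold is given for either gene.

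Of the 8 chemokines in the fit, 2 were higher at an adjusted p under 0.05 (Cxcl13 and Ccl9), none was lower and 6 did not pass. At an unadjusted p under 0.05 from edgeR 4 were higher and 0 lower, and DESeq2 called 3 higher and 0 lower. Ccl9 was in the fit only because it was higher with siCD36, so the counts and the median of the 8 partly reflect the filter. Over all genes tested, 5.26% were called in either direction and 2.20% were called higher, and nothing is read from the members' count against this, since the genes were picked on this comparison. At an unadjusted p under 0.05, edgeR had 25.4% of all genes tested, 12.5% higher and 12.9% lower, and DESeq2 called 6.51% higher and 7.71% lower. The shares at an adjusted p from edgeR rest on 260 genes higher and 361 lower, and these counts moved with each library. With replicate 1, 2 or 3 of siCD36 left out, 431, 5 or 61 genes were higher and 650, 15 or 83 lower, and with replicate 1, 2 or 3 of siCont left out, 34, 16 or 50 were higher and 42, 17 or 65 lower. The groups did not overlap in 3 of the 8 (Cxcl13, Ccl7 and Ccl9), against 32.4% of all genes tested. The median log2 fold change of the 8 was 0.59, with 6 above 0, beside 0.0028 over all genes tested.

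**Figure D2:**
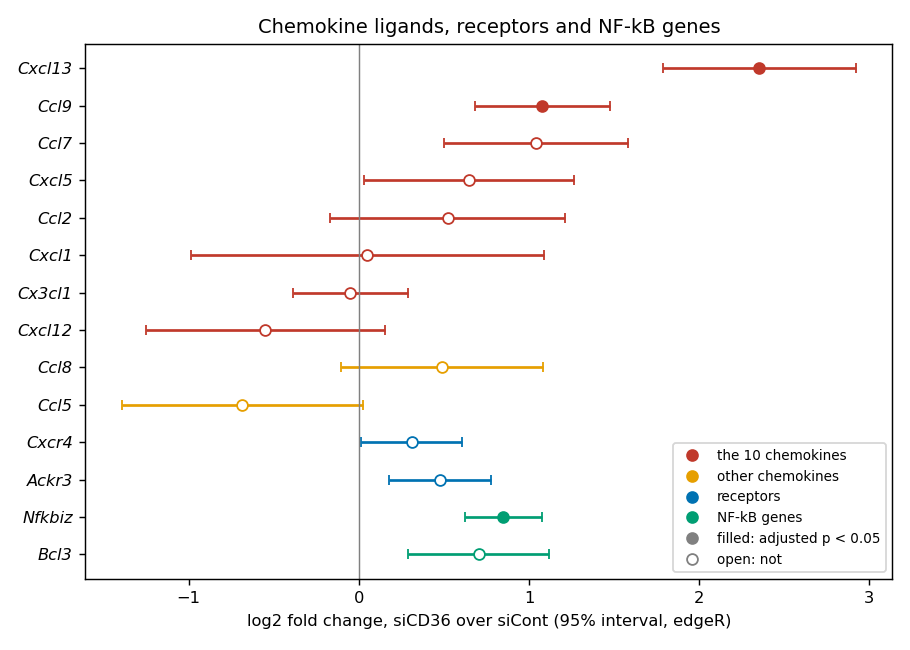
Log2 fold change of siCD36 over siCont with its 95% interval from edgeR (horizontal axis) for the 8 chemokines in the fit, the other chemokines and the receptors that were tested, and 2 NF-kB genes. The 2 NF-kB genes drawn, Nfkbiz and Bcl3, lay above 0, while 10 of the 15 tested in that list lay below. Filled points passed an adjusted p under 0.05; among the ligands these were Cxcl13 at 2.35 and Ccl9 at 1.08, and Cxcl12 had the lowest value of the 8 chemokines at -0.55.

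Among the 10 genes alone, the order of levels on the FPKM scale was as follows. The siCD36 samples had Ccl7 at 17.8 ± 4.95, Cxcl12 at 17.6 ± 6.95, Cxcl13 at 9.65 ± 1.45 and Ccl2 at 6.57 ± 2.38 (SD, n = 3 each). In siCont samples Cxcl12 came first of the 10 at 25.1 ± 5.48, followed by Ccl7 at 8.49 ± 0.619, Ccl2 at 4.49 ± 0.321 and Cx3cl1 at 2.41 ± 0.281 (SD, n = 3 each). Neighbors among the first 4 of the 10 genes that overlapped between samples were Ccl7 with Cxcl12 and Cxcl13 with Ccl2 in siCD36 samples. In siCont samples the first 3 of the 10 did not overlap, and Cx3cl1 overlapped with Cxcl13, the next gene in the order, at 1.84 ± 0.533 FPKM.

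Set against the summed FPKM of all 38 chemokine ligands in the same library, Cxcl12 made up 13.2%, 23.7% and 19.3% with siCD36 and 35.3%, 38.3% and 32.3% with siCont. The share of Cxcl13 was 8.20%, 9.08% and 15.1% with siCD36 and 2.28%, 3.08% and 2.37% with siCont, and that of Ccl7 was 18.7%, 20.8% and 17.3% with siCD36 and 12.6%, 10.0% and 14.0% with siCont. In CPM the groups did not overlap in 32.4% of all genes tested, and no value of this kind was taken over all genes for shares. In these shares the groups did not overlap in 7 of the 25 ligands with a count, 6 of them among the 10 picked genes. The 7 were Cxcl12, Cxcl13, Ccl7, Ccl9, Cxcl5, Cx3cl1 and Ccl5. They overlapped in the other 18, among them the share of Ccl8, at 39.8%, 29.6% and 30.3% with siCD36 and 31.2%, 31.1% and 29.9% with siCont, and that of Ccl2, at 8.86%, 6.38% and 5.56% with siCD36 and 6.28%, 5.24% and 7.97% with siCont. Shares within a library depend on each other, so a larger share of one gene lowers those of the rest. In CPM the groups of Cxcl12, Cxcl5, Cx3cl1 and Ccl5 overlapped. The summed FPKM itself was 99.1, 108 and 72.9 with siCD36 and 72.4, 79.1 and 60.1 with siCont. The groups overlapped, with siCD36 replicate 3 at the level of siCont replicate 1 and below siCont replicate 2.

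**Figure D3:**
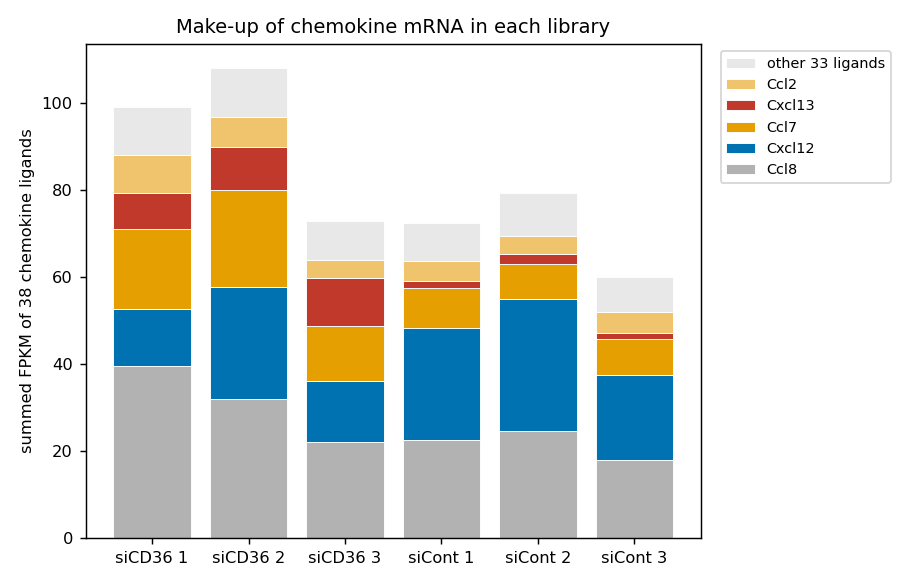
Summed FPKM of the 38 chemokine ligand genes (vertical axis) in each siCD36 (left) and siCont (right) library, stacked by gene. The red block of Cxcl13 is 8.12 to 11.0 FPKM high with siCD36 and 1.42 to 2.44 FPKM with siCont, and the blue block of Cxcl12 is 13.1 to 25.6 FPKM with siCD36 and 19.4 to 30.3 FPKM with siCont.

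Among the 28 other chemokine ligand genes, 13 had no counts in any library, 26 were below the filter and 2, Ccl8 and Ccl5, were tested. Over the 6 libraries the highest mean FPKM of any chemokine was that of Ccl8 (26.4), a CC chemokine gene of the same cluster as Ccl2 and Ccl7. Ccl8 was at 39.4, 32.0 and 22.1 FPKM with siCD36 and 22.6, 24.6 and 18.0 FPKM with siCont, and its log2 fold change was 0.49 (standard error 0.247, adjusted p = 0.271 from edgeR). Within that cluster, siCD36 replicate 3 was the lowest siCD36 sample for Ccl2, Ccl7, Ccl8 and Ccl11 alike. Ccl5, the neighbor of Ccl9 and a chemoattractant of T cells, was at 0.928, 1.47 and 0.824 CPM with siCD36 and 1.37, 1.92 and 1.90 CPM with siCont (log2 fold change -0.69, standard error 0.294, adjusted p = 0.208 from edgeR). Neither passed, none had an unadjusted p under 0.05 from edgeR (0 of 2), and DESeq2 called 0. Among all genes tested, 25.4% had such an unadjusted p, and DESeq2 called 6.51% higher and 7.71% lower. Whether reads were shared among close relatives was not tested. The longest exact stretch that transcripts of any of the 10 genes had in common with another chemokine was 25 bases (Ccl9 with Ccl6) in the GENCODE M21 transcripts, followed by 23 bases for Ccl2 with Ccl7, Cxcl1 with Cxcl2 and Cxcl1 with Cxcl3.

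Of the receptors, only those of Cxcl12 were above the filter. No counts were found in any library for Cxcr5 (the receptor of Cxcl13), Cxcr2 (of Cxcl1 and Cxcl5), Cxcr3 (of Cxcl10) and Ackr1, an atypical receptor of several chemokines. Ccr2 had 0, 7 and 0 counts with siCD36 and none with siCont, Ccr1 had 0, 4 and 0 with siCD36 and 0, 0 and 4 with siCont, Ackr2 had 4, 0 and 0 with siCD36 and 4, 0 and 0 with siCont, and Cx3cr1 had 15, 7 and 0 with siCD36 and 0, 18 and 0 with siCont. Of the 23 receptor genes listed, 9 had no counts at all, 12 were below the filter with some counts, and 2 were tested, both of them receptors of Cxcl12.

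Cxcr4, the signaling receptor of Cxcl12, was at 24.3, 26.7 and 26.3 CPM with siCD36 and 18.2, 20.0 and 24.0 CPM with siCont (log2 fold change 0.31, standard error 0.124, adjusted p = 0.180 from edgeR). Ackr3, an atypical receptor that removes Cxcl12, was at 25.5, 25.2 and 22.3 CPM with siCD36 and 17.4, 15.2 and 19.8 CPM with siCont (log2 fold change 0.48, standard error 0.125, adjusted p = 0.0793 from edgeR). For both receptors each siCD36 sample lay above each siCont sample, as it did or the reverse in 32.4% of genes, and neither passed. Both had an unadjusted p under 0.05 from edgeR, as had 25.4% of all genes tested. DESeq2 called 1 of them higher, Ackr3 (adjusted p = 0.0121), beside 6.51% of all genes tested.

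Among 16 genes of the NF-kB pathway, through which many chemokine genes are induced, 15 were tested, of which 1 rose, 0 fell and 14 did not pass. Over all genes tested, 5.26% passed and 2.20% rose. At an unadjusted p under 0.05 from edgeR 2 were higher and 3 lower, beside 25.4% of all genes tested. DESeq2 called 2 higher and 1 lower, beside 6.51% and 7.71% of all genes tested. The median log2 fold change of the 15 was -0.09, beside 0.0028 over all genes. The gene that rose was Nfkbiz, which encodes the nuclear inhibitor IkB-zeta, a protein that also helps to induce a subset of NF-kB targets. Nfkbiz was at 24.8, 26.1 and 22.7 CPM with siCD36 and 13.5, 13.4 and 14.0 CPM with siCont (log2 fold change 0.85, standard error 0.0940, adjusted p = 0.0151 from edgeR). Its adjusted p from edgeR was 0.05 or more without siCD36 replicate 2 (0.0677), siCont replicate 1 (0.0525) or siCont replicate 2 (0.0820), at log2 fold changes of 0.80 to 0.90 over all 6 such fits. For Bcl3, a nuclear member of the same inhibitor family, the log2 fold change was 0.70 ± 0.173 (SE), at an adjusted p of 0.0727 from edgeR. Tnip1, another gene of the list, went the other way (log2 fold change -0.28, adjusted p = 0.0718 from edgeR), and DESeq2 called it lower (adjusted p = 0.0140). Of the 15 tested, 5 lay above 0 and 10 below. Nfkbia, the classical feedback inhibitor that NF-kB induces, had 9.48 ± 0.635 CPM with siCD36 and 9.45 ± 1.23 CPM with siCont (SD, n = 3 each).

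Of 22 cytokines and receptors that act upstream of chemokine genes, 10 were tested and none passed, beside 5.26% of all genes tested. At an unadjusted p under 0.05 from edgeR 1 was higher and 1 lower, beside the same 25.4%. DESeq2 called 1 higher and 1 lower, beside 6.51% and 7.71% of all genes tested. The smallest p among these 10 were those of Il17ra, a subunit of the IL-17 receptor (log2 fold change -0.32, standard error 0.0847, adjusted p = 0.0821 from edgeR), and Il1r1, the receptor of interleukin-1 (1.15, standard error 0.344, adjusted p = 0.107 from edgeR). Il1r1 was at 48.2, 41.7 and 85.8 CPM with siCD36 and 17.4, 28.7 and 33.2 CPM with siCont, with the highest value in siCD36 replicate 3. The inducers themselves were scarce. Il6 had 51, 75 and 70 counts with siCD36 and 24, 30 and 14 with siCont, which was below the filter, and Tnf had 0, 0 and 8 with siCD36 and 8, 0 and 0 with siCont.

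Of 16 genes of the interferon response, 10 were tested and none passed (median log2 fold change -0.07), beside 5.26% of all genes tested. At an unadjusted p under 0.05 from edgeR 0 were higher and 2 lower, beside the same 25.4%. DESeq2 called 0 higher and 1 lower, beside 6.51% and 7.71% of all genes tested. Ifit3, an interferon-induced gene, had the smallest p, with 1.92, 2.23 and 2.23 CPM with siCD36 and 3.06, 3.23 and 3.69 CPM with siCont (log2 fold change -0.65, standard error 0.167, adjusted p = 0.0778 from edgeR). Next was Irf3, a transcription factor of the antiviral response (-0.39, standard error 0.147, adjusted p = 0.166 from edgeR). Of the chemokines that interferon induces together with Cxcl10, Cxcl11 had no counts and Cxcl9 had 4, all in siCont replicate 2.

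Chemokines are trimmed or shed by proteases and held at cell surfaces by heparan sulfate. Of 12 genes of chemokine proteases and their inhibitors, 7 were tested, 0 rose and 1 fell, Timp2, an inhibitor of metalloproteinases. Over all genes tested, 5.26% passed in either direction and 2.20% rose. At an unadjusted p under 0.05 from edgeR 1 was higher and 2 lower, beside 12.5% and 12.9% of all genes tested. DESeq2 called 0 higher and 1 lower, beside 6.51% and 7.71% of all genes tested. Timp2 was at 1407 ± 112 CPM with siCD36 and 1922 ± 6.28 CPM with siCont (SD, n = 3 each), which is -0.45 ± 0.0821 (SE) on the log2 scale, with adjusted p = 0.0356 from edgeR. The call of Timp2 held only without siCD36 replicate 1 (log2 fold change -0.51) when a library was left out, and it was lost without siCD36 replicate 2 (-0.44) or 3 (-0.40) and without siCont replicate 1, 2 or 3 (-0.45 each). For Adam17, which sheds Cx3cl1, the log2 fold change was 0.54 ± 0.193 (SE), with adjusted p = 0.149 from edgeR. Mmp2 went the other way (log2 fold change -0.22, adjusted p = 0.137 from edgeR). Dpp4, which trims Cxcl12 and Cxcl10, had no counts in any library. Of 16 genes of heparan sulfate chains and their core proteins, 14 were tested and none passed, beside 5.26% of all genes tested. At an unadjusted p under 0.05 from edgeR 3 were higher and 2 lower, beside 25.4% of all genes tested. DESeq2 called 2 higher and 1 lower, beside 6.51% and 7.71% of all genes tested. The smallest p were those of Sdc4, syndecan-4 (log2 fold change 0.37, standard error 0.0800, adjusted p = 0.0516 from edgeR) and Ndst1, a sulfation enzyme (0.72, standard error 0.198, adjusted p = 0.0903 from edgeR).

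Markers of leukocytes and endothelial cells were low, while 5 of 7 fibroblast markers were above the filter. Of 12 leukocyte markers, 3 had no counts in any library (Adgre1, Cd3e and Ncr1), Ptprc had 8 counts in siCont replicate 3 and none elsewhere, and only Cd14 was tested (log2 fold change 0.10, adjusted p = 0.722 from edgeR). The summed level of these 12 markers was 5.93 to 8.80 FPKM with siCD36 and 5.64 to 7.32 FPKM with siCont. Among 6 endothelial markers Emcn had no counts, Cdh5 had at most 12 in a library, and the summed level was 2.85 to 3.95 FPKM with siCD36 and 1.34 to 1.81 FPKM with siCont, most of it from Tek, the angiopoietin receptor, which rose (log2 fold change 1.15, standard error 0.159, adjusted p = 0.0216 from edgeR). That call of Tek held only without siCD36 replicate 1 (1.25) when a library was left out, and was lost without siCD36 replicate 2 (1.03) or 3 (1.15) and without siCont replicate 1 (1.07), 2 (1.26) or 3 (1.11). The 7 fibroblast markers had a summed level of 687 to 705 FPKM with siCD36 and 613 to 748 FPKM with siCont. Of these 7, 2 were below the filter, and none of the 5 tested passed, beside 5.26% of all genes tested. A sum can rest on a few abundant genes.

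Of 12 skeletal muscle markers, 11 were tested. Myf5 rose, Myh3 fell and 9 did not pass, beside 5.26% of all genes tested called in either direction and 2.20% called higher. At an unadjusted p under 0.05 from edgeR 1 was higher and 3 lower, beside 25.4% of all genes tested. DESeq2 called 1 higher and 2 lower, beside 6.51% and 7.71% of all genes tested. The median log2 fold change of the 11 was 0.0066, beside 0.0028 over all genes tested. Myf5, a transcription factor of muscle precursors, was at 17.0, 17.4 and 16.9 CPM with siCD36 and 8.38, 7.75 and 10.9 CPM with siCont (log2 fold change 0.93, standard error 0.145, adjusted p = 0.0274 from edgeR). Myh3 was at 2150 ± 129 CPM with siCD36 and 3305 ± 134 CPM with siCont (SD, n = 3 each; log2 fold change -0.62, standard error 0.0844, adjusted p = 0.0210 from edgeR). Myf5 kept its call only without siCD36 replicate 1 (0.93) or siCont replicate 3 (1.08), with 0.91 and 0.93 without siCD36 replicates 2 and 3 and 0.88 and 0.83 without siCont replicates 1 and 2. Myh3 kept it only without siCD36 replicate 1 (-0.59) or 3 (-0.67), with -0.60 without siCD36 replicate 2 and -0.61, -0.65 and -0.60 without siCont replicates 1, 2 and 3. The part of these markers in the chemokine differences was not tested.

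**Figure D4:**
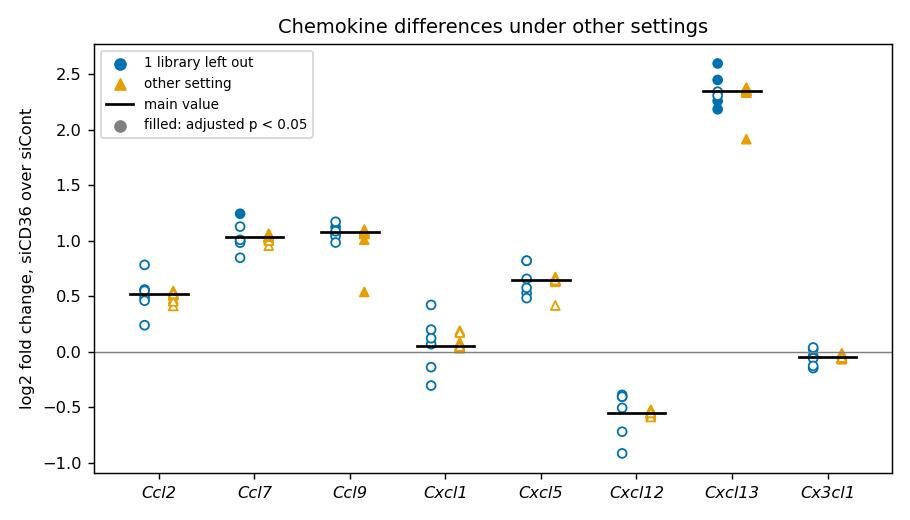
Log2 fold change of siCD36 over siCont (vertical axis) for the 8 chemokines in the fit, as reported in the text (black line), with each of the 6 libraries left out (blue circles) and under other settings (orange triangles); filled marks had an adjusted p under 0.05. Cxcl13 stayed between 1.92 and 2.60, while Cxcl1 and Cx3cl1 fell on both sides of 0.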

How the data were processed

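RNA-seq of 3 siCD36 and 3 siCont samples was analysed, grouped by their labels; dose and time are from the study's methods. Per the study's methods, HISAT 2.0 was the authors' aligner and StringTie gave their FPKM. The table deposited by the authors holds raw counts per gene, not normalized, and FPKM, with 1e-04 FPKM where a gene had no reads. For the genome build, annotation, strand setting and counting tool, the sources used here name none. Every gene ID was found in GENCODE M21 (GRCm38), 94.7% of them at the coordinates of the table, and so were 9 of the 10 chemokines; printed gene coordinates are those of the table.

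After a filter at a mean of 1 FPKM, 11796 genes entered edgeR 4.0.16 (R 4.3.3; TMM, glmQLFit, glmQLFTest) in a model of siCD36 against siCont, with Benjamini-Hochberg adjustment over all 11796. The standard error was taken as |log2 fold change| over the root of F. In data simulated for siCD36 against siCont over these 11796 genes, 50 genes were altered at each size, of which edgeR called 13 at 1.5-fold, 36 at 2-fold, 47 at 4-fold and 50 at 8-fold, along with 6 unaltered genes. Genes were simulated independently of each other, so a spread shared by many genes of a library was left out. These counts do not carry over as rates to the real data. Log-scale correlations between libraries were at most 0.982, and none were identical.

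The 10 genes and all gene lists were chosen with earlier results of these data known. Named were Cd36, Myog, the 10 genes, tested chemokines, their receptors, markers, and in each list the genes that passed, or else the 2 with the smallest p. Ccl11, Ccl25, Cxcl9, Cxcl11, Bcl3, Tnip1, Nfkbia, Il6, Tnf, Adam17, Mmp2, Dpp4 and Art3 were named after their values were seen. Alternatives were other scalings, filters and pseudocounts, DESeq2 1.42.0, limma 3.58.1, a block for the replicate number and leaving out each library; robust estimation and counts divided by 4 were added after seeing the data. A planned comparison of protein cysteine patterns was not made.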

Additional observations from a re-analysis of the deposited data

How the results depend on the processing

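Of the 8 chemokines in the fit, Cxcl13, Ccl2, Ccl7, Ccl9, Cxcl5 and Cxcl12 kept their direction under every alternative run, and Cxcl13 kept its call under all 11 that used every library (log2 fold change 1.92 to 2.38). Ccl9 lost its call with the replicate block (1.08), and its log2 fold change was 0.54 in limma on log2(FPKM + 1), where the pseudocount lowers differences of weak genes. Ccl7 passed with upper quartile scaling (1.06), in DESeq2 (1.04), at a mean of at least 5 FPKM (1.06), in limma on log2(FPKM + 0.1) (1.03) and with robust estimation (1.04).

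Over the fits that each left out a library, log2 fold changes were 2.18 to 2.60 for Cxcl13, 0.24 to 0.78 for Ccl2, 0.85 to 1.24 for Ccl7, 0.98 to 1.17 for Ccl9, 0.48 to 0.82 for Cxcl5, -0.92 to -0.39 for Cxcl12, -0.30 to 0.42 for Cxcl1 and -0.15 to 0.039 for Cx3cl1. Cxcl1 turned negative without siCD36 replicate 1 (-0.14) and siCont replicate 3 (-0.30), and Cx3cl1 positive without siCD36 replicate 3 (0.025) and siCont replicate 2 (0.039). In the same fits 0 to 2 of the chemokines were called higher, 5 to 431 genes were higher and 15 to 650 lower, 0 to 1 NF-kB genes and 0 to 1 heparan sulfate genes were higher and 0 to 1 protease genes lower. Fits without a library have fewer samples.

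Genes called higher and lower numbered 768 and 909 in DESeq2 and 116 and 211 with no filter. With the replicate block there were 56 and 143, with 1 chemokine higher and 0 protease genes lower. Deviations of same-numbered samples correlated at 0.150, -0.0294 and 0.0585, and those of differently numbered samples at -0.128 to 0.0893. These values do not settle whether the numbers pair the samples, and the main model did not pair them. DESeq2 also called 1 receptor gene, 2 NF-kB genes, 1 upstream cytokine gene and 2 heparan sulfate genes higher, and 1 gene lower in each of the NF-kB, upstream cytokine, interferon and heparan sulfate lists. At a mean of at least 5 FPKM 0 NF-kB genes and 1 heparan sulfate gene were higher, as was 1 heparan sulfate gene with upper quartile scaling and with robust estimation. Dividing the counts by 4 gave 266 genes higher and 372 lower, with 2 chemokines among the higher. Cxcl10 and Cxcl14 had too few counts for a test.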

Other observations

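The ratio of Ccl9 to its neighbor Ccl5 in FPKM, taken within each library, was 1.54, 1.04 and 1.92 with siCD36 and 0.450, 0.373 and 0.415 with siCont. The ratio of Cxcl13 to Cxcl12 was 0.620, 0.383 and 0.783 with siCD36 and 0.0646, 0.0805 and 0.0734 with siCont. Both ratios, and the counts of Mmp12, were chosen after their values were seen and are given with no test. Mmp12, a macrophage elastase that cuts chemokines, was below the filter and had 74, 92 and 79 counts with siCD36 and 32, 46 and 36 counts with siCont.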
